A study of Mus musculus with 10 samples.

Results

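The genes examined here were 9 transcripts that mark resting microglia of the healthy brain and that encode mainly surface or secreted proteins, namely Tmem119, Siglech, Cx3cr1, Fcrls, Olfml3, Sparc, Selplg, Slc2a5 and Crybb1. They were chosen by name, with earlier results of these data known. Each was matched by its gene symbol to a single identifier among the 53715 genes counted. Microglia were isolated from the midbrain (Mdb) and the striatum (Str) of untreated C57BL/6 mice aged 3 months, described in the study's methods as C57BL/6 J males, with beads against CD11b after papain digestion and a Percoll step, and their polyadenylated RNA was sequenced. A pilot cohort gave 2 midbrain and 2 striatum libraries, and the second cohort gave 2 and 2 whose labels settle their region, so 8 of the 10 libraries were compared. The labels of the remaining 2 libraries name a different region in 2 places, and these were kept out of every group. No library carried a transgene or a treatment, and CD11b beads also retain monocytes, neutrophils and border macrophages. The study checked bead-separated cells by flow cytometry and reports that nearly all were microglia and a few were other myeloid cells. It gives no purity for each region. The study names fewer mice than libraries, so midbrain and striatum libraries can come from the same mouse. The labels do not settle which, because the titles and the other labels number the second cohort differently, and the p-values measure the spread between libraries.

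Homeostatic microglia survey the tissue with their processes while expressing a set of genes that separates them from macrophages that enter from the blood. This set depends on transforming growth factor beta and on the lineage factor PU.1, and many of its genes are turned down when microglia become activated. Tmem119, Siglech, Fcrls, Olfml3 and Slc2a5 are largely restricted to microglia within the brain. Cx3cr1 and Selplg are shared with blood leukocytes, and Sparc is also made by endothelial and mural cells. Crybb1 encodes a soluble crystallin of the lens, so it is neither a surface nor a secreted protein in the strict sense, and is known in microglia as a transcript.

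The total counts of the 8 libraries ranged from 575709 to 8463782, a 14.7-fold span, and the smallest was replicate 3 of the striatum in the second cohort. All 9 genes passed the filter on low counts in each fit, and the lowest count of any of them in a library was 176, for Slc2a5. Levels are given as CPM, counts set against the total of their library, and scaled with the TMM factors of edgeR. The protocol reads 3′ ends. Each gene was tested between regions only, and levels of different genes were not tested against each other. The isolated cells carried myeloid transcripts, with Csf1r, the receptor that microglia need to survive, between 4331 and 7047 CPM. Transcripts of other brain cells were present as well, and the summed level of 8 oligodendrocyte markers lay between 6171 and 12263 CPM.

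All 9 genes had lower mean levels in the midbrain than in the striatum in both cohorts, where 48.4% of all genes in the pilot and 50.1% in the second had a log2 fold change below 0. Over both cohorts the midbrain level was on average 69.3% of the striatal level, from 56% for Siglech to 79.2% for Cx3cr1. In the fit of both cohorts 2 genes passed, Siglech and Olfml3, each with an adjusted p under 0.05 in limma. Over all 14053 genes of that fit, 0.0854% passed with a lower level in the midbrain, and 45.6% had a log2 fold change below 0.

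Promoter sequence is shown for the genes that passed, with that of Fcrls because it held a motif of the lineage factor. Capitals mark the motif GAGGAAG, 1 form of the site that PU.1 binds, and other or shorter forms were not searched. The sequences are the 250 bases before the annotated start in RefSeq (build GRCm38.p6), 5′ to 3′ on the strand of the gene. They lie at chr7:55767934-55768183 on the plus strand for Siglech, chr3:103738002-103738251 on the minus strand for Olfml3, and chr3:87263525-87263774 on the minus strand for Fcrls.
Siglech: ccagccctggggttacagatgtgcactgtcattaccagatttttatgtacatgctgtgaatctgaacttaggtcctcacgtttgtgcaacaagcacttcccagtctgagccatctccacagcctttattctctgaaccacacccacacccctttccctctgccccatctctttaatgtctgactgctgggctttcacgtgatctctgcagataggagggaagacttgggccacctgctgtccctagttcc
Olfml3: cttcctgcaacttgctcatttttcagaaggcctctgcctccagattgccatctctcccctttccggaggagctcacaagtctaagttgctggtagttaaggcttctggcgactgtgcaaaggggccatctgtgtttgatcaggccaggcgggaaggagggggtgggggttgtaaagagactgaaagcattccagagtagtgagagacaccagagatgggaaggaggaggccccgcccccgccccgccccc
Fcrls: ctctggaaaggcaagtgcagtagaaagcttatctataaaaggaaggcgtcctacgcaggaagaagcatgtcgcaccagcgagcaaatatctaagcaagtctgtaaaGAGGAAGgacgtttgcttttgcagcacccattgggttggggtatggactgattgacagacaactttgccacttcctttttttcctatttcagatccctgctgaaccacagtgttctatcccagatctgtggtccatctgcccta
RefSeq promoters were matched for 7 of the 9 genes, namely all but Tmem119 and Selplg. GAGGAAG was searched on both strands and occurred in 1 of the 7 windows, that of Fcrls, against 10.6% of 32851 promoter windows of the same length. The match is on the plus strand of the gene, from 144 to 138 bases before the RefSeq start, and describes letters only. Most of the Fcrls window, the match included, lies inside the Gencode interval counted for Fcrls (87250758 to 87263738). The match is therefore not upstream of the gene as it was counted.

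Tmem119, Selplg and Crybb1 are on chromosome 5 of GRCm38. Tmem119 (ENSMUSG00000054675.5, 113793729 to 113800516) and Selplg (ENSMUSG00000048163.13, 113818536 to 113832644) are both on the minus strand with 18019 bases and 1 annotated gene between them. Crybb1 (ENSMUSG00000029343.17, 112255815 to 112269585) lies 1524143 bases from Tmem119. Fcrls (ENSMUSG00000015852.13, 87250758 to 87263738) and Olfml3 (ENSMUSG00000027848.12, 103722222 to 103738001) are on chromosome 3, and the others are on chromosomes 7 (Siglech, ENSMUSG00000051504.18, 55768178 to 55778925), 9 (Cx3cr1, ENSMUSG00000052336.7, 119901616 to 120069879), 11 (Sparc, ENSMUSG00000018593.13, 55394500 to 55423183) and 4 (Slc2a5, ENSMUSG00000028976.10, 150119283 to 150144169). Cx3cr1 spans a long annotated interval that overlaps other genes, and exons of Gm33858 overlap its own, so reads in the shared exons were not counted for either gene. The other 8 genes overlap no annotated gene.

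Among the receptors, Siglech encodes a sialic acid-binding lectin that signals through the adaptor Tyrobp. Its levels were 674 and 855 CPM in the midbrain and 1145 and 1423 CPM in the striatum of the pilot cohort. They were 906 and 1449 CPM in the midbrain and 1969 and 2428 CPM in the striatum of the second cohort. Each midbrain library was below each striatum library of its cohort. Siglech was 0.79 lower on the log2 scale in the pilot cohort (log2 fold change of -0.79, SE 0.21, unadjusted p = 0.00432 from limma). The second cohort gave -0.94 (SE 0.27, unadjusted p = 0.00517 from limma), and -0.56 (unadjusted p = 0.0163) without its midbrain replicate 1. In the joint fit it fell by 0.84 (SE 0.17, 95% interval from -1.20 to -0.47, adjusted p = 0.0417 from limma), the largest decrease of the 9.

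Cx3cr1 encodes the receptor for fractalkine, a chemokine displayed by neurons. In the pilot cohort it was at 756 and 924 CPM in the midbrain and at 1188 and 1257 CPM in the striatum. In the second cohort the midbrain libraries held 2687 and 1754 CPM and the striatum libraries 1987 and 2868 CPM. The regions were thus apart in the pilot cohort and interleaved in the second. The log2 fold change was -0.59 (SE 0.19) in the pilot cohort and -0.13 (SE 0.27) in the second, and its joint value of -0.34 did not pass (95% interval from -0.72 to 0.05, adjusted p = 0.408 from limma). Its value in the second cohort rested on single libraries, at 0.25 without midbrain replicate 3, 0.12 without striatum replicate 3 and -0.43 without striatum replicate 1. Cx3cr1 was also the only member whose levels did not overlap between the cohorts, at 756 to 1257 CPM in the pilot cohort and 1754 to 2868 CPM in the second.

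Fcrls, an Fc receptor-like scavenger receptor, stood at 924 and 1016 CPM in the midbrain against 1087 and 1278 CPM in the striatum of the pilot cohort. The values of the second cohort were 1124 and 1186 CPM against 1675 and 1715 CPM. The regions did not overlap in either cohort, with a narrower gap in the pilot. Its joint log2 fold change was -0.41 (SE 0.12, adjusted p = 0.13 from limma).

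Selplg encodes PSGL-1, the ligand of P-selectin that leukocytes use to roll on vessel walls. It was at 4451 and 4667 CPM in the midbrain and 6411 and 5059 CPM in the striatum of the pilot cohort, and at 2745 and 3617 CPM against 5378 and 4751 CPM in the second. Every midbrain library was below every striatum library of its cohort. Selplg had a log2 fold change of -0.70 in the second cohort (SE 0.23, unadjusted p of 0.00951 from limma), which passed the threshold set there. Its joint log2 fold change of -0.50 (SE 0.14) had an adjusted p of 0.122 from limma. Tmem119, a transmembrane protein used to tell microglia from blood-derived macrophages, held 2067 and 2220.3 CPM in the midbrain and 2274 and 3353 CPM in the striatum of the pilot cohort. It held 1356 and 1830.1 CPM against 2327 and 2270.0 CPM in the second. Its regions came close in the pilot cohort and were further apart in the second, and its joint log2 fold change of -0.45 (SE 0.15) had an adjusted p of 0.187 from limma.

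Olfml3 and Sparc encode the secreted proteins of the group. Olfml3 is an olfactomedin-like glycoprotein of the extracellular space. Its midbrain libraries held 1101 and 1142 CPM in the pilot cohort and 1282 and 1602 CPM in the second, and its striatum libraries 1654 and 1831 CPM and 2230.1 and 2091 CPM. No other member kept its 4 groups apart over the whole series, with the second striatum highest, then the pilot striatum, the second midbrain and the pilot midbrain. Olfml3 fell by 0.62 in the joint fit (SE 0.12, 95% interval from -0.87 to -0.36, adjusted p = 0.0367 from limma). Its log2 fold change was -0.68 in the pilot cohort and -0.61 in the second, with unadjusted p of 0.0044 and 0.0202 from limma.

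Sparc, a matricellular protein that binds collagen and loosens cell contacts, was at 3625 and 4130.0 CPM in the midbrain and 4924 and 5353 CPM in the striatum of the pilot cohort, and at 3814 and 4296 CPM against 5961 and 6389 CPM in the second. The midbrain libraries of both cohorts lay within 3625 to 4296 CPM and every striatum library was above them. Its joint log2 fold change of -0.51 (SE 0.11) had an adjusted p of 0.0623 from limma.

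Slc2a5 encodes the fructose transporter GLUT5. Its levels were 251 and 292 CPM in the midbrain and 316 and 435 CPM in the striatum of the pilot cohort, and 134 and 238 CPM against 330.3 and 302 CPM in the second. The regions did not overlap in either cohort, and its 2 midbrain libraries of the second cohort differed more than its striatum libraries. The joint log2 fold change was -0.63 (SE 0.19, adjusted p = 0.153 from limma). Crybb1 held 362 and 456 CPM against 463 and 456 CPM in the pilot cohort, and 218 and 296 CPM against 562 and 314 CPM in the second. One midbrain and 1 striatum library of the pilot cohort were nearly level, and the striatum libraries of the second cohort lay far apart. Its log2 fold change was -0.22 (SE 0.18) in the pilot cohort and -0.80 (SE 0.31) in the second. Without midbrain replicate 1 the pilot value was -0.05, and without striatum replicate 1 that of the second cohort was -0.34.

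**Figure D1:**
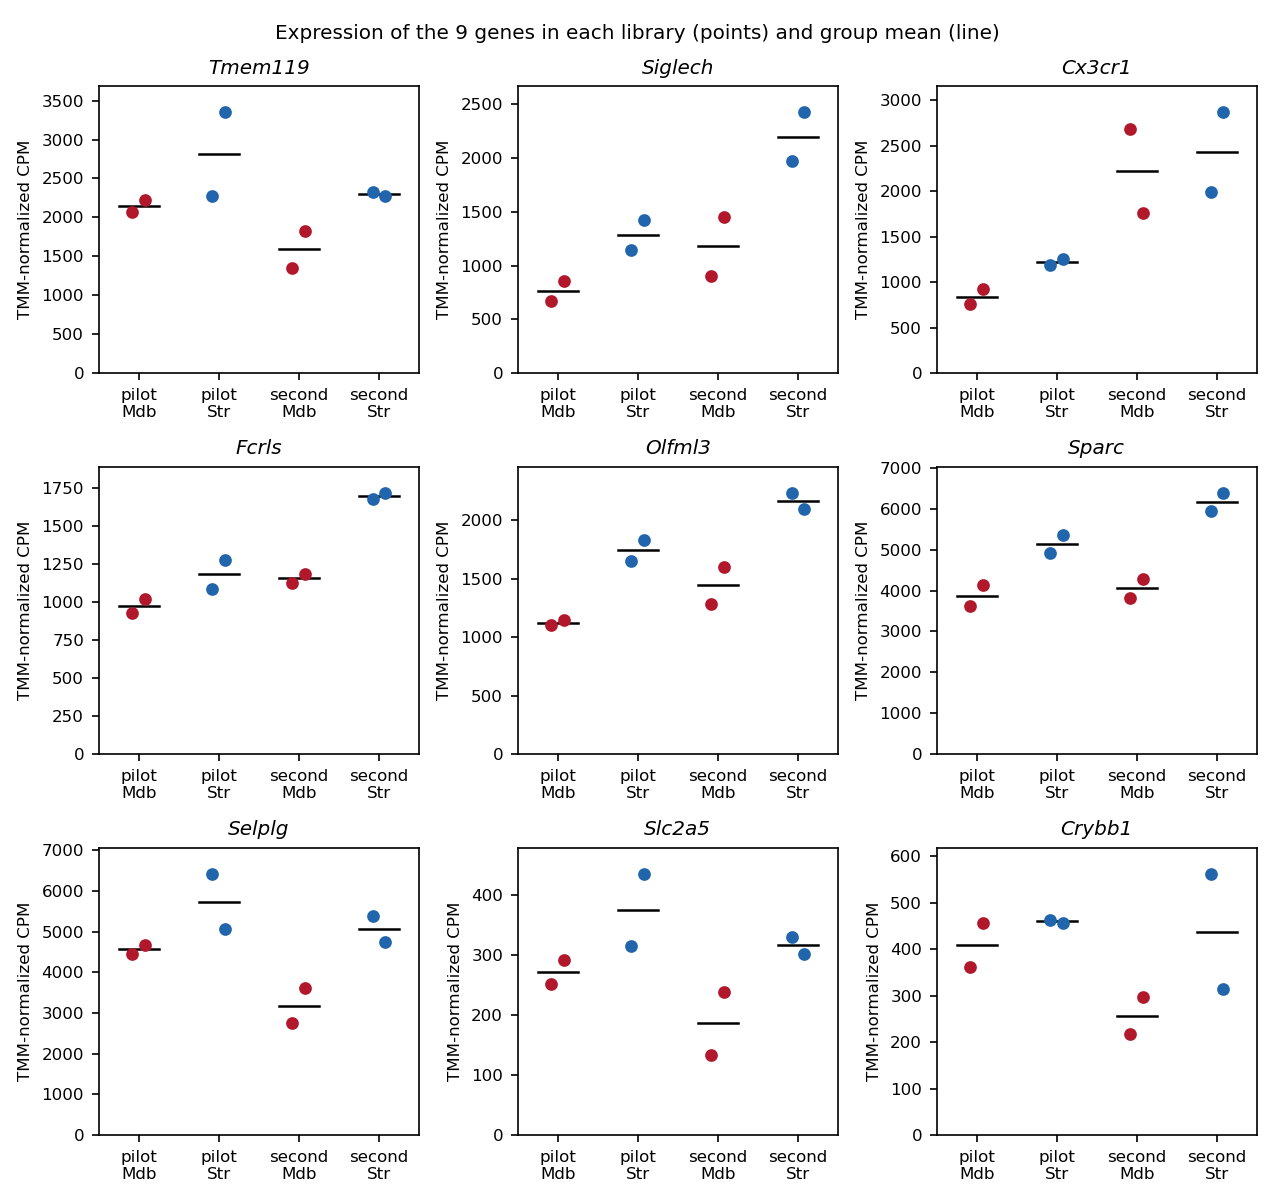
TMM-normalized CPM of each gene (vertical axes, from 0) in the 8 libraries, by cohort and region (Mdb, midbrain, red; Str, striatum, blue). Points are libraries and lines are means of 2. The striatum points lie above the midbrain points of the same cohort for every gene except Cx3cr1 in the second cohort.

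Counted over libraries, every midbrain library was below every striatum library of its cohort for 9 of the 9 genes in the pilot cohort, where 19.4% of 14972 genes did the same. In the second cohort this held for 8 of the 9 genes, against 17.4% of 13486 genes. In both cohorts at once it held for 8 of the 9, all but Cx3cr1, against 6.04% of 14053 genes. Crybb1 was separated narrowly, at 456.2 against 456.4 CPM for its closest pilot libraries and 296 against 314 CPM in the second cohort. At the cohort threshold of an unadjusted p under 0.01, Siglech and Olfml3 passed in the pilot cohort and Siglech and Selplg in the second. This was 2 of 9 in each, where 0.548% of all genes in the pilot cohort and 0.593% in the second passed with a lower level in the midbrain. With adjustment over all genes 0 of the 9 passed in either cohort alone (limma), while 5 in the pilot cohort and 8 in the second had an unadjusted p under 0.05, against 4.03% and 3.68% of all genes with a lower level. The counts at the cohort threshold turned on single libraries, and so did the number of all genes called. When each library was left out in turn, the mean log2 fold change of the 9 genes stayed negative. It ranged from -0.59 to -0.36 in the pilot cohort and from -0.75 to -0.46 in the second. In the joint fit 8 of the 9 had an unadjusted p under 0.05, all but Cx3cr1, against 5.21% of all genes with a lower level.

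Both calls of the joint fit depended on single libraries. When each library was left out in turn, Siglech passed once in 8, without midbrain replicate 3 of the second cohort (0.0235), and otherwise its adjusted p lay between 0.0529 and 0.174. Olfml3 passed in 3 of the 8, those without striatum replicate 2 of the pilot cohort or either midbrain library of the second, and had 0.0776 to 0.154 in the other 5. Its log2 fold change ranged only from -0.71 to -0.58 over these 8 fits, and that of Siglech from -0.99 to -0.71. Including both libraries with conflicting labels gave Siglech an adjusted p of 0.845 if the titles were followed and 0.00592 if the other label was. For Olfml3 the same placements gave 0.776 and 0.00744. With the number in the other labels as a block, Siglech had an adjusted p of 0.129 and Olfml3 of 0.154 over the 8 libraries, and 0.0133 and 0.0183 over all 10 with both placed by that label (limma).

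**Figure D2:**
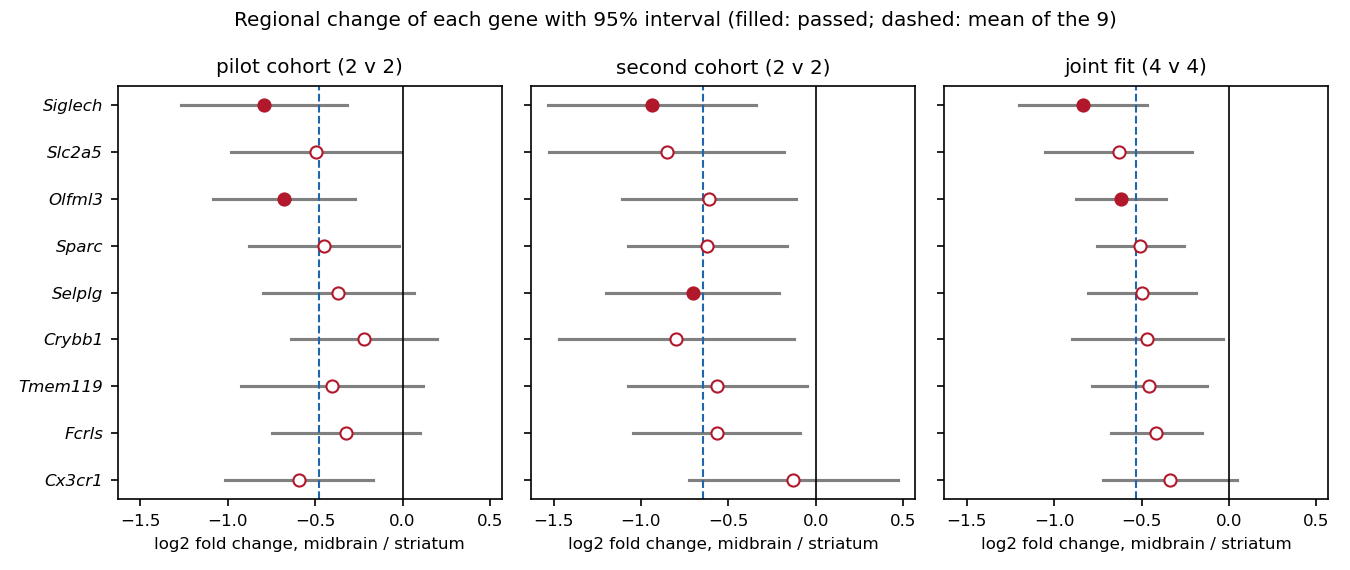
Log2 fold change of midbrain over striatum (horizontal axis) for each gene, with its 95% interval from limma, in the pilot cohort, in the second cohort and in the joint fit. Filled points passed the threshold of the fit and the dashed line is the mean of the 9 genes, -0.48, -0.64 and -0.53 in turn. All points lie below 0. The intervals of Tmem119, Fcrls, Selplg and Crybb1 cross 0 in the pilot cohort, and that of Cx3cr1 in the second cohort and in the joint fit.

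The size of the change was then compared with the mean of the 9 genes. The mean log2 fold change was -0.48 with an SD over genes of 0.18 in the pilot cohort, -0.64 with an SD of 0.23 in the second, and -0.53 with an SD of 0.15 in the joint fit. The median over all genes of the joint fit was 0.04. To ask which genes departed from the mean, the mean log2 CPM of the 9 genes in each library was subtracted from that of each gene, which cancels the scaling of the library. Labels of region were then permuted within cohorts, which gives 36 labelings and a smallest two-sided p of 0.0556.

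Siglech had the most negative relative log2 change of the 9, -0.31 in the pilot cohort and -0.31 in the second. Its midbrain level, set against the mean of the 9 genes including itself, was thus 80.6% of that in the striatum. The exact permutation p was 0.111, and in the second cohort the relative values of its libraries overlapped between regions. Slc2a5 (-0.11) and Olfml3 (-0.08) also had negative relative changes, with exact permutation p of 0.556 and 0.278. Olfml3 had a relative change of -0.20 in the pilot cohort and 0.03 in the second.

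Sparc followed the mean most closely, with relative changes of 0.03 and 0.01 in the cohorts and a mean of 0.02 (SE 0.05). Selplg (0.03), Tmem119 (0.07) and Crybb1 (0.08) were near the mean as well, but the values of Selplg and Crybb1 differed in sign between the cohorts. Fcrls had positive relative changes in both, 0.16 and 0.07, with a mean of 0.11 (SE 0.06) and an exact permutation p of 0.167. Cx3cr1 had the widest spread, with -0.11 in the pilot cohort and 0.48 in the second, a mean of 0.19 (SE 0.27) and an exact permutation p of 0.667. None of the 9 relative changes was separated from 0 by this test, which cannot reach 0.05 with these libraries. The 9 p-values ranged from 0.111 to 0.944 before any adjustment.

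**Figure D3:**
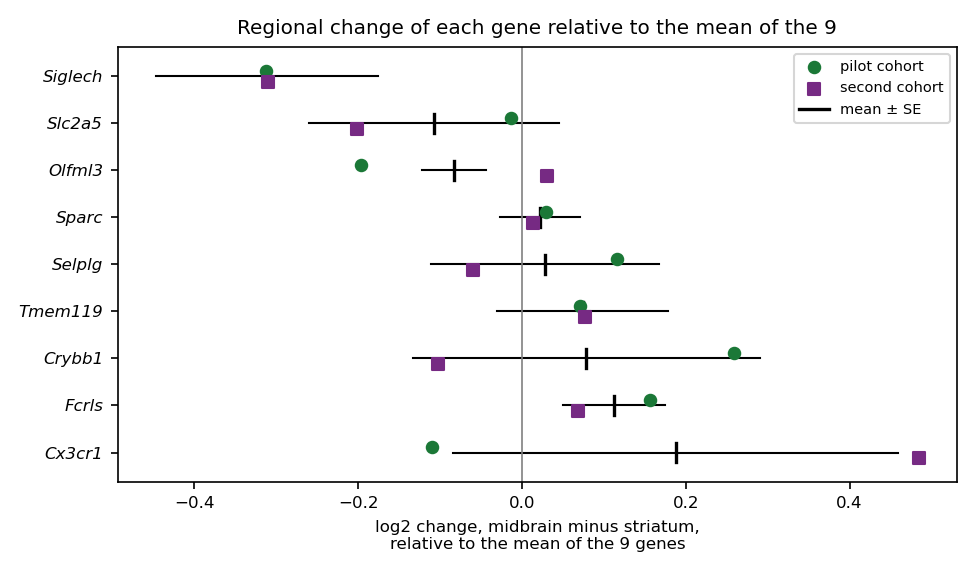
Log2 change of midbrain minus striatum for each gene after subtraction of the mean of the 9 genes in each library (horizontal axis). Circles are the pilot cohort, squares the second, and the bar gives their mean with its standard error from the replicate spread. Siglech is at -0.31 in both cohorts, and Cx3cr1 moves from -0.11 to 0.48.

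The regional change was also compared between the cohorts with an interaction term. No member had an adjusted p under 0.05 (limma, lowest value of 0.861), as was the case for 0% of all genes, and none had an unadjusted p under 0.05, against 5.49% of all genes. The 95% intervals of the difference were wide, from -1.43 to 0.19 for Crybb1 and from -0.32 to 1.18 for Cx3cr1. The order of the group means split the members. Tmem119, Selplg, Slc2a5 and Crybb1 were highest in the pilot striatum, then in the second striatum, the pilot midbrain and the second midbrain. Siglech, Fcrls, Olfml3 and Sparc were highest in the second striatum, then in the pilot striatum, the second midbrain and the pilot midbrain. The libraries of the pilot and the second striatum overlapped for the 4 genes of the first order, and for Crybb1 the second striatum also overlapped the pilot midbrain. In the second order, the pilot striatum overlapped the second midbrain for Siglech and Fcrls, and the midbrain groups overlapped for Sparc. The median over the 4 libraries of a cohort was 1.71 times as high in the second cohort as in the pilot for Siglech and 2.21 times for Cx3cr1, and 0.669 times for Crybb1.

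The 9 genes belong to a wider group, and 23 other homeostatic microglia genes were tabulated beside them. Of these, 21 had a lower level in the midbrain in the joint fit, where 45.6% of all genes had a log2 fold change below 0. Their median log2 fold change was -0.55, against -0.50 for the 9 genes. Golm1 (-0.72, adjusted p = 0.0417) and Hpgds (-0.71, adjusted p = 0.0445), which makes prostaglandin D2, fell and passed (limma), as did 0.0854% of all genes. At an unadjusted p under 0.05 (limma), 16 of the 23 had a lower level and 0 rose, against 5.21% of all genes with a lower level. The purinergic receptor P2ry12, which steers microglial processes to ATP, had the largest value, -0.88 (SE 0.23, adjusted p = 0.0966). The sialic acid-binding receptor Cd33 was at -0.79 (SE 0.22) and the receptor Gpr34 at -0.78 (SE 0.59), and both did not pass. Csf1r was at -0.31 (SE 0.11). Mef2c (0.20) and Tgfb1 (0.14) were the 2 genes of the list with a positive value.

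Of 10 genes that encode partners or relatives of the members 8 could be tested and 0 passed in either direction (limma), with Itgam at an unadjusted p of 0.0334 and the others over 0.05. Tyrobp, the adaptor of Siglech, had a log2 fold change of -0.13 (SE 0.12), and the glucose transporters Slc2a1 and Slc2a3, relatives of Slc2a5, were at 0.34 (SE 0.18) and 0.32 (SE 0.27). Cx3cl1, the ligand of Cx3cr1, was at 4.43 CPM on average. The related matrix gene Sparcl1 was at 0.38 (SE 0.54). Among 12 genes shared by macrophages in general, such as C1qa (-0.14) and Ctss (-0.35), 11 had a lower level in the midbrain with a median of -0.17, and 0 passed (limma), with an unadjusted p under 0.05 for 2. With all libraries scaled to these 12 genes in place of the TMM factors, the 9 genes kept a negative log2 fold change in the joint fit, with a mean of -0.35. This scaling shifted the median of all genes to 0.23, and under it Crybb1 in the pilot cohort (0.04) and Cx3cr1 in the second (0.0035) changed sign.

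Over the 8 libraries, with each cohort centred, the genes closest to the mean profile of the members were Ppcdc, Tox4, Uros, Nt5m and Asph. Their log2 CPM departed from that profile by a root mean square of 0.0608 to 0.0731, where the median over 6810 genes of at least 20 CPM was 0.363. Among the members, Sparc (0.0501), Olfml3 (0.0803) and Fcrls (0.0868) were closest to the mean that they belong to, and Cx3cr1 (0.323) was farthest. Ppcdc, an enzyme of coenzyme A synthesis, had a log2 fold change of -0.60 (SE 0.14, adjusted p = 0.0651 from limma).

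Markers of several other cell types had higher levels in the midbrain of the same libraries, where 0.975% of all genes passed with a higher level. Over all genes, 45.6% had a log2 fold change below 0. All 11 brain border macrophage markers tested were higher in the midbrain, 7 of them past the threshold, and their summed level was 1975 to 2380.3 CPM in the midbrain and 1004 to 1358 CPM in the striatum of the pilot cohort. The second cohort had 3226 to 3279.8 CPM against 644 to 739 CPM. Pf4 rose by 2.11 (adjusted p = 0.0181), and Stab1 was at 0.19 and did not pass. Of 11 monocyte markers 11 were higher and 4 passed, with a summed level of 1206 to 1264 against 543 to 787 CPM in the pilot cohort and 1493 to 3887 against 503 to 661 CPM in the second. Nr4a1 (0.95, adjusted p = 0.028), an immediate early gene that microglia also express, made up most of this sum in the pilot cohort. Without Nr4a1 the sum was 319.6 to 419 against 147 to 166 CPM in the pilot cohort and 775 to 3073 against 132 to 316 CPM in the second. Plac8 was at 2.75 (adjusted p = 0.116).

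Of 11 neutrophil markers 10 were higher and 5 passed, among them S100a9 (3.08, adjusted p = 0.0181), while Csf3r (-0.26), which microglia also express, did not. Of 9 T and NK cell markers 9 were higher and 2 passed (limma), with Ccl5 at 2.43 (adjusted p = 0.0174) and Gzma at 2.02 (adjusted p = 0.125). Cd2, Klrb1c, Trbc2, Ms4a4b, Lck and Ncr1 averaged 1.86 to 4.99 CPM, below 5.21 CPM, the level of 3 counts in the smallest library. Of 12 fibroblast and mural cell markers 12 were higher and 0 passed, with Rgs5 at 0.72 and Vtn at 0.16. An unadjusted p under 0.05 (limma) was met by 7, and the share of all genes higher at that p was not counted. Col1a1, Col3a1, Pdgfra, Myh11 and Tagln averaged 1.92 to 5.11 CPM, also below the level of 3 counts in the smallest library. None of these markers was at 0 in every library, but Cd3e and the border macrophage marker Folr2 had at most 3 counts in each and were not tested. The part of these cells in the lower level of the 9 genes was not tested, and in bulk RNA fewer microglia and less RNA of a gene per microglial cell cannot be told apart. The summed level of the 9 genes was 14210.2 to 15702.5 CPM in the midbrain and 19461 to 20446 CPM in the striatum of the pilot cohort, and 14266 to 16268 against 22419 to 23129.7 CPM in the second.

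Of 10 endothelial markers 6 were lower and 4 higher, with Cldn5 at 0.16, Flt1 at -0.09 and a median of -0.29 in the pilot cohort and 0.67 in the second, and their summed level did not exceed 430.1 CPM. Of 8 astrocyte markers 4 were lower and 4 higher, with Slc1a2 at -0.05 and Aldoc at -0.06 in the joint fit, while the median of the list was 0.84 in the pilot cohort and -0.91 in the second. Of 8 oligodendrocyte markers 7 were higher, with Mbp at 0.06, and 3 neuron markers could be tested, with Tubb3 at 0.72 and Rbfox3 at -0.04. In each of these 4 lists 0 passed (limma), and an unadjusted p under 0.05 was met by 1 endothelial, 1 astrocyte, 0 oligodendrocyte and 1 neuron marker, all lower. Of 11 genes of disease-associated microglia, a state in which homeostatic genes are turned down, 9 were higher and 3 passed (limma). Apoe was among them at 1.39 (adjusted p = 0.0174 from limma), while Cd9 was at -0.48 and did not pass. The part of this state in the lower level of the 9 genes was not tested. Of 14 immediate early and dissociation genes 13 were higher and 3 passed (Fosb, Klf2 and Klf4), with Jun at 0.65 and Junb at 0.16. The median of that list was 0.25 in the pilot cohort and 1.12 in the second, against -0.45 and -0.62 for the 9 genes, and its part in the result was not tested.

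**Figure D4:**
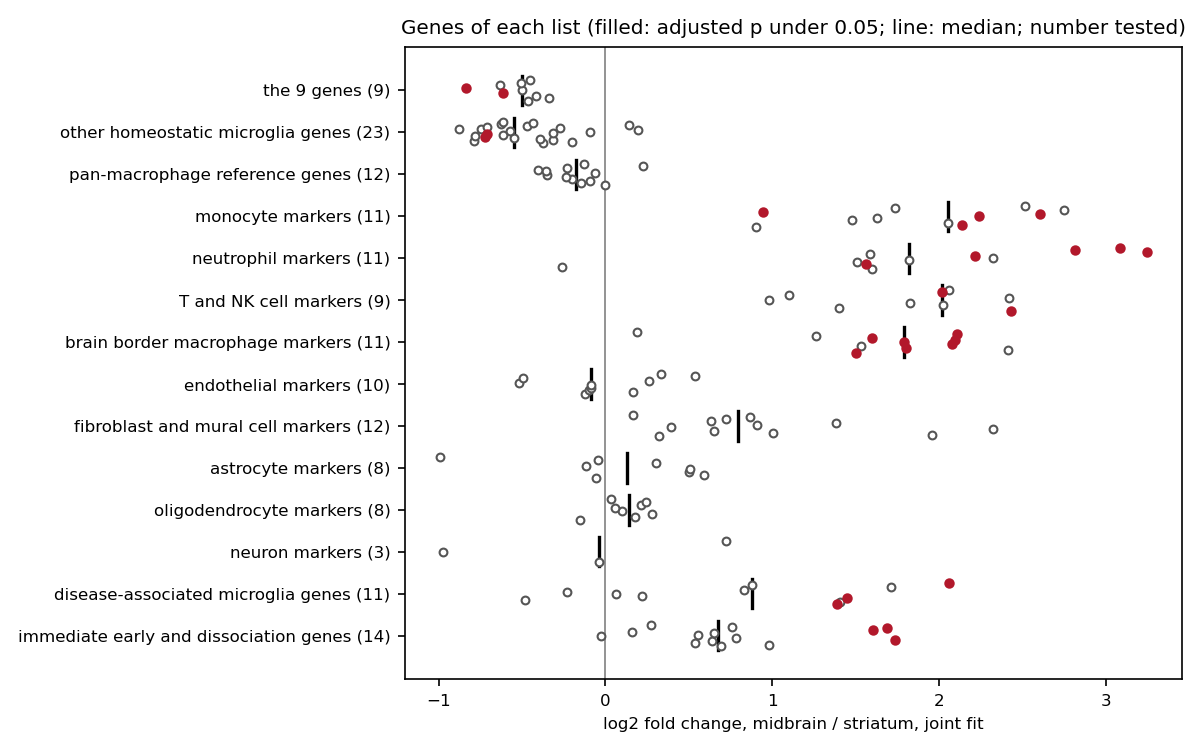
Log2 fold change of midbrain over striatum in the joint fit (horizontal axis) for each gene of each list, with the number of genes tested in parentheses. Filled points had an adjusted p under 0.05, vertical bars are medians, and the height of a point within its row carries no meaning. The 9 genes lie between -0.84 and -0.34, and the monocyte, neutrophil, T and NK cell and border macrophage lists have medians of 2.05, 1.82, 2.02 and 1.79.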

How the data were processed

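Microglia of untreated mice were sequenced as 10 bulk libraries with a MARS-seq protocol. Alignment by the authors used STAR (2.5.3a) and GRCm38. They deposited raw counts of 53715 genes per library, made with featureCounts (1.6.0) over Gencode M17 exons. The command in the file headers sets no strand and leaves reads that overlap several genes uncounted. Symbols were matched to 53620 identifiers. Here, TMM scaling (edgeR 4.0.16) was followed by voom and limma 3.58.1 in R 4.3.3. The study's methods name edgeR, voom, limma, the filter and an unadjusted p under 0.01, used here within each cohort. The joint fit with cohort as a covariate and a Benjamini-Hochberg adjusted p under 0.05 was added here. A gene was dropped from a fit if over 50% of its libraries held under 6 counts. Relative changes used log2 CPM with a prior count of 2. A level of 3 counts was taken as the floor, for counting error only, at 0.354 to 5.21 CPM. The 2 libraries whose title and other label name different regions were not assigned. DESeq2 1.42.0 and edgeR's quasi-likelihood test were alternatives. The procedure was also run on simulated counts, drawn without shared mice or mixed cell types, and the outcome is not reported here. Members and lists were chosen with earlier results of these data known. Beside the members, the text names Csf1r, P2ry12 and the 3 largest changes of the homeostatic list, the 2 most abundant genes of each list of other cells, and the 5 genes closest in profile, and some genes that this rule names are not reported here. Golm1, Hpgds, Mef2c, Tgfb1, Itgam, Fosb, Klf2, Klf4, the partners and macrophage genes were named after their values were seen.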

Additional observations from a re-analysis of the deposited data

Results flagged for a closer look

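Signal of the 9 genes was present in the 2 libraries that no comparison used, above the level of 3 counts (1.89 and 0.578 CPM). The values follow as TMM-normalized CPM over all 10 libraries. In the library whose title reads Mdb 2, with 1584013 counts, Tmem119 was at 2435, Siglech at 2455, Cx3cr1 at 3709 and Fcrls at 1546 CPM. Olfml3 was at 2081, Sparc at 5455, Selplg at 4678, Slc2a5 at 397 and Crybb1 at 335 CPM in the same library. In the library whose title reads Str 2, with 5194739 counts, Tmem119 was at 1051, Siglech at 921, Cx3cr1 at 1225 and Fcrls at 1049.5 CPM. There Olfml3 was at 1217, Sparc at 3881, Selplg at 3062, Slc2a5 at 184 and Crybb1 at 219.8 CPM. The sum over the 9 genes was 23092 CPM in the first and 12811 CPM in the second. These values were not used to settle the region of either library.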

How the results depend on the processing

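The negative direction of the 9 genes in the joint fit was kept in 188 of 189 values under the other settings, the exception being Cx3cr1 with the 2 unsettled libraries placed by title (0.0129). In the second cohort Cx3cr1 turned positive under that placement (0.37), when scaled to macrophage genes (0.0035) and when libraries were left out (-0.43 to 0.25). Crybb1 in the pilot cohort turned positive when scaled to macrophage genes (0.041).

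The counts of members passing moved more. In the joint fit (2) it was 1 with edgeR's quasi-likelihood test, 1 when scaled to macrophage genes, 4 without a filter, 0 with at least 10 counts in every library, 4 with quality weights, 0 with placement by title, 7 by the other label, and 0 to 2 when leaving out single libraries. In the pilot cohort (2) it was 1 when scaled to macrophage genes and 4 without a filter, and it changed when single libraries were left out. In the second cohort (2) it was 0 with the quasi-likelihood test, 1 with DESeq2, 1 when scaled to macrophage genes and 5 without a filter. There it was 1 with at least 10 counts, 0 by title and 6 by the other label, and it changed when single libraries were left out. For the 23 other homeostatic genes (2) it was 7 with DESeq2, 0 when scaled to macrophage genes, 11 without a filter, 1 with at least 10 counts, 4 when thinned, 4 with quality weights, 0 by title, 13 by the other label and 0 to 3 when leaving out single libraries. The mean change of the members (-0.53) was -0.35 when scaled to macrophage genes and -0.26 by title. It was -0.60 to -0.48 when leaving out single libraries. Over all genes, calls lower in the midbrain moved as well. In the joint fit (12 of 14053) there were 0 by title and 144 of 13814 by the other label. There were 49 of 25586 without a filter and 54 of 14053 with quality weights. In the second cohort (80 of 13486) there were 86 of 13254 by title and 171 of 13254 by the other label. Without a filter there were 109 of 22350 in that cohort and 205 of 24002 in the pilot cohort (82 of 14972). The cause of these moves was not tested. The 0 calls of the interaction stayed at 0 under the alternatives run.

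The number of all genes called in the joint fit (149) was 237 with the quasi-likelihood test, 544 with DESeq2, 246 when scaled to macrophage genes, 277 without a filter, 57 with at least 10 counts, 308 with the block, 412 with quality weights, 0 by title and 440 by the other label, and 0 to 238 when leaving out single libraries. In the pilot cohort (395) it was 822 without a filter and 108 to 2445 when leaving out single libraries. There, 82 of 395 calls were lower in the midbrain, and 13 of 533 when scaled to macrophage genes. In the second cohort (468) it was 988 with the block, 283 when thinned, 204 with at least 10 counts, 132 by title and 393 to 1240 when leaving out single libraries.

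Relative changes near 0 changed sign in places, namely Sparc (-0.0539) and Selplg (-0.015) by title and Cx3cr1 (-0.0046) by the other label. When leaving out single libraries the ranges that crossed 0 were -0.0226 to 0.171 for Tmem119, -0.0423 to 0.417 for Cx3cr1, -0.0119 to 0.055 for Sparc, -0.10 to 0.16 for Selplg, -0.239 to 0.0242 for Slc2a5 and -0.12 to 0.28 for Crybb1.

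With the replicate number of the titles as a block, 3 members passed in the joint fit, 2 in the pilot cohort and 6 in the second. Of the 23 other genes, 9 passed in the joint fit. Over all genes, this block called 56 of 14053 lower in the midbrain in the joint fit. It called 82 of 14972 lower in the pilot cohort and 285 of 13486 in the second. Same-numbered libraries shared little deviation (correlation of -0.03 in the pilot cohort and 0.08 in the second), and the other labels number the second cohort differently, so that block may not stand for animals. A block on the number in the other labels was added after the data were seen. Over the 8 libraries it paired 1 midbrain with 1 striatum library of the second cohort. In the joint fit it left 0 members, 0 of the 23 other genes and 77 of all genes passing, with a mean change of the members of -0.45. All 77 were higher in the midbrain, so 0 of 14053 genes were called lower. With the unsettled libraries placed by that label this block gave 4, 6 and 342 in the joint fit, where 61 of 13814 genes were called lower in the midbrain. It gave 3 members in the second cohort. In that cohort 99 of 13254 genes were then called lower in the midbrain. Over the settled libraries of the second cohort alone this block left no residual degrees of freedom.

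Leaving out 1 library left 1 sample in an arm of a cohort, which was assumed to vary like the others. Depth limits the second striatum most, where 3 counts equal 5.21 CPM in the smallest library.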
